A study of Drosophila melanogaster with 2 samples.

Results

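The genes described here encode the core machinery of membrane traffic in *Drosophila melanogaster*, and the data show where a tagged CG11696 protein sat at their promoters. They were picked by symbol: protein-coding genes whose symbol starts with Rab, RabX, Vps, Snx, Sec, Syx, Trs or Exo followed by a digit in the dm6 annotation. This choice was made with earlier results of these data known. Of 13968 protein-coding genes on chromosomes 2L, 2R, 3L, 3R, 4, X and Y, 105 matched: 36 Rab, 27 Vps, 7 Snx, 19 Sec, 10 Syx, 4 Trs and 2 Exo genes. The assay was chromatin immunoprecipitation followed by sequencing, in 1 group of 2 biological replicates. Both replicates were whole embryos aged 0 to 24 h from flies of a strain named CG11696-GFP, carrying a transgene for CG11696 fused to eGFP, and the antibody recognised the GFP tag. The labels do not say which sequences drive the transgene, and whole embryos mix all cell types, so a peak cannot be assigned to a tissue. There was no second condition, so the comparisons are between genes, and between the replicates.

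Membrane traffic moves proteins and lipids between organelles in vesicles. Coats bud a vesicle from a donor membrane, Rab GTPases mark membranes and recruit tethers, tethers such as exocyst, TRAPP and HOPS catch the vesicle, and SNAREs of the syntaxin family fuse it with the target. The Vps genes, first defined in yeast by faulty sorting to the vacuole, act largely between endosomes and lysosomes, and the sorting nexins bind endosomal membranes. CG11696 is a predicted zinc finger protein.

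A gene was counted as bound where the summit of a peak in the conservative thresholded list lay within 500 bp of any of its transcription start sites (TSSs). That list holds the peaks of the pooled reads that pass the authors' limit on the irreproducible discovery rate (IDR) between replicates, and 3143 of them were used. Strength is given as the authors' signal value, which comes with no stated formula and is larger in the pooled list than in the replicates' lists. Read depth is unknown. Most peaks had a fixed width, 344 bp in 2447 of 3143 (77.9%), with the summit at or near the middle, so the distances below are coarse.

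The summit sequences of 8 of the 11 bound promoters are shown first, the 4 strong ones among them, because they are the sites on which the results turn. Those of Sec6, Vps50 and Rab39 are not shown, although their peaks are stronger than those of Sec61alpha, Snx21 and Syx16. Each holds the summit and 50 bases to either side of it, read 5′ to 3′ on the strand of the trafficking gene, and comes from the RefSeq copy of the Release 6 assembly. They lie at chr3L:16131620-16131720 (Trs20), chr3L:4403327-4403427 (Syx17), chr2L:2363717-2363817 (Rab5), chrX:2744184-2744284 (Syx4), chr3R:25473267-25473367 (Vps33B), chr2L:6480709-6480809 (Sec61alpha), chr2L:2766058-2766158 (Snx21) and chrX:20394183-20394283 (Syx16). Capitals mark exact matches, on either strand, to the motifs named further on: ATTTAAAA at Rab5, and TTTATA, the complement of TATAAA, at Syx4.
Trs20: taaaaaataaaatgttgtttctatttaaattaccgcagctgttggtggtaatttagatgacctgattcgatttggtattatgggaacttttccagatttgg
Syx17: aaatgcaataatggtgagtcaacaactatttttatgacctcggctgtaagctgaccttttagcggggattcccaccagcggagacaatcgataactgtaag
Rab5: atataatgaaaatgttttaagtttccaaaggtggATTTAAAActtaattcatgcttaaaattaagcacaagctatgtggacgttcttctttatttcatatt
Syx4: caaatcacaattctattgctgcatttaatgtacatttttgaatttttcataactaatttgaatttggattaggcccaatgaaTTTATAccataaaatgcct
Vps33B: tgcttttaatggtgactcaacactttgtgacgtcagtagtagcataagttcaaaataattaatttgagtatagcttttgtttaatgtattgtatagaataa
Sec61alpha: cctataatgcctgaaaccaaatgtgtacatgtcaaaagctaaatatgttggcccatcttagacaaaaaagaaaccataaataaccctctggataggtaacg
Snx21: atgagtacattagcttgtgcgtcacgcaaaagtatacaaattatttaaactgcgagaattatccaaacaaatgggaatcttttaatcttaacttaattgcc
Syx16: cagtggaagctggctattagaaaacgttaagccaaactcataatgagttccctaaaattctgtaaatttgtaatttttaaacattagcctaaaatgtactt

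The windows are rich in A and T. Over the 11 bound trafficking genes the median A+T content of the summit window was 69.3%, against 56.9% as the median of the mean of 2 equally long windows centred 300 bp to either side. Over all 3143 conservative summits these medians were 66.3% and 56.9%, so A+T-rich summits were a feature of the list as a whole and not of the trafficking genes alone. The summit was richer in A+T than both flanking windows in 8 of the 11 and in 56.8% of all summits. The highest content was at Sec6, a subunit gene of the exocyst, with 84.2% against 46.5% and 43.6% in the flanking windows, and with an unbroken run of 19 A or T bases. The lowest was at Syx17, with 56.4% against 53.5% and 54.5%. At Trs20, Snx21 and Syx16 one flanking window was the richer one, as at Snx21, with 68.3% at the summit and 81.2% on one side.

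Among 105 trafficking genes 11 were bound, which is 10.5% (95% Wilson interval 5.95 to 17.8, covering the counting of genes only). The background over all protein-coding genes was 10.1%, or 1404 of 13968. The share is therefore near the background, and is not a result about this machinery. The bound genes were Rab5, Rab39, Vps33B, Vps50, Snx21, Sec6, Sec61alpha, Syx4, Syx16, Syx17 and Trs20. A ranked peak of any strength lay within 500 bp of a TSS in 72 of the 105 genes (68.6%, 59.2 to 76.7), against a background of 64.7%. The optimal list bound 12 (11.4%) against a background of 11.7%. Replicate 1's own list bound 7 (6.67%) against 7.44% of all genes, and replicate 2's bound 8 (7.62%) against 7.4%.

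Peak strength among the bound genes was split. Trs20, Syx17, Rab5 and Syx4 had pooled signal values of 1102, 1068, 866 and 773, while the other 7 lay between 60.7 and 137. No bound trafficking gene lay between 137 and 773. The median was 124, against 121 for all 1404 bound genes. A pooled value of at least 500, a mark chosen after the values were seen, was reached by 4 of the 11 and by 6.62% of all bound genes, and no test was made of this difference.

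**Figure D1:**
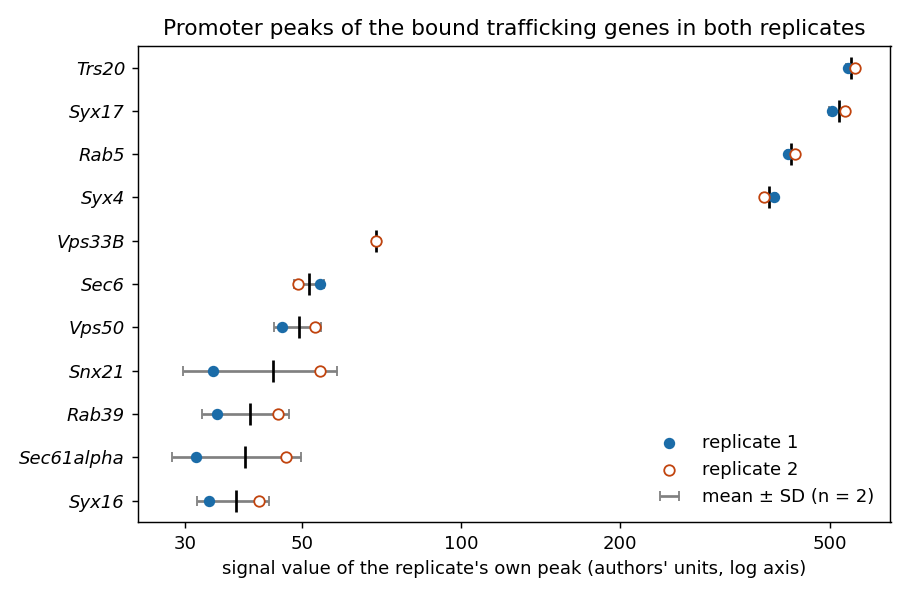
Signal value of the promoter peak at each of the 11 bound trafficking genes, in replicate 1 (filled) and replicate 2 (open), with the mean and SD of the 2 values as a tick and bar on a log axis. Trs20, Syx17, Rab5 and Syx4 sit between 376 and 557 in both replicates, and the other 7 genes sit between 31.4 and 68.8.

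The strongest of the 11 promoter peaks was at Trs20, which encodes a small subunit of TRAPP, the complex that tethers vesicles at the Golgi and activates a Rab. Its signal value was 540 in replicate 1 and 557 in replicate 2 (549 ± 12.3, SD, n = 2), and its peak (3L, 16131526 to 16131812) was the 18th strongest of all conservative peaks, with the summit 38 bp upstream of the TSS. The gene on the opposite strand, elg1, whose yeast counterpart acts in DNA replication, has a TSS 358 bp from the same summit. Of the other 3 Trs genes, Trs33 had only a ranked peak of 26.9, with an IDR score of 141 on a scale where 830 is the lowest score of a thresholded peak, and Trs23 and Trs31 had no ranked peak at a TSS.

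The exocyst, which tethers secretory vesicles to the plasma membrane, had 1 of 8 subunit genes bound (12.5%, 2.24 to 47.1), near the background of 10.1%. That gene was Sec6, with 53.9 in replicate 1 and 49.1 in replicate 2 (51.5 ± 3.35, n = 2). Its summit lies between Sec6 (93 bp) and the autophagy gene Atg7 (112 bp), which start in opposite directions. Sec8 came nearest among the rest, with a ranked peak of 58.6 and an IDR score of 674. Its matched peaks had 37.9 in replicate 1 and 27.9 in replicate 2. Exo84 and Exo70 had ranked peaks of 28.2 and 25.3. The Exo84 peak is the same one that lies at Vps2, an ESCRT-III gene that starts on the opposite strand, so these 2 genes share a source. Sec10 had a ranked peak of 22.0, and Sec3, Sec5 and Sec15 had none.

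Among the tethers of the endosomal system, Vps50, a subunit of the EARP complex that recycles endosomal cargo, had 45.7 and 52.7 in the replicates (49.2 ± 5.0, n = 2), at equal distances of 108 bp from its own TSS and from that of PIG-A, an enzyme gene of GPI anchor synthesis. It was the only bound gene of 4 in the GARP and EARP group (4.56 to 69.9%). None of the 4 HOPS and CORVET genes in the symbol list was bound (upper bound 49.0%), and both intervals include the background of 10.1%. Of the 4 HOPS and CORVET genes in the symbol list, Vps8 had the strongest ranked peak, at 24.4. Among those with other symbols, car had a ranked peak of 57.3, with an IDR score of 631. None of the 3 retromer genes was bound either, although each of Vps26, Vps29 and Vps35 had a ranked peak, with values from 10.2 to 13.7.

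Syntaxins are the membrane SNAREs of the target side, and 3 of 10 Syx genes were bound (95% Wilson interval 10.8 to 60.3%, whose lower end lies just above the background of 10.1%). Of these, Syx16 was in neither replicate's own list, and its summit is nearer to the TSS of HERC2 (162 bp) than to its own (482 bp). Each replicate's own list bound 2 of the 10, where 7.44% and 7.4% of all genes were bound. Syx also had the highest share of the subfamilies, and the difference from the background was not tested. With the genes of SNAREs and SNARE partners of other names added, the count was 5 of 31 (16.1%, 7.09 to 32.6), an interval that includes the background. Syx17, the SNARE by which autophagosomes fuse with lysosomes, had 504 in replicate 1 and 535 in replicate 2 (520 ± 22.1, n = 2). Its peak (3L, 4403197 to 4403546) was the 21st strongest of the list, 110 bp upstream of the single TSS, with no other gene's TSS within 500 bp. Syx4, a plasma membrane syntaxin, had 391 and 376 (383 ± 11.0, n = 2), 158 bp upstream of a TSS (X, 2744093 to 2744377).

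Syx4 was also the one trafficking gene with non-overlapping thresholded peaks at different TSSs. The second peak lay in an intron (X, 2743229 to 2743370), 350 bp upstream of an inner TSS, with 67.1 in replicate 1 and 92.6 in replicate 2 (79.8 ± 18.1, n = 2). Syx16, a syntaxin of the trans-Golgi network, had 33.2 and 41.4 (37.3 ± 5.78, n = 2), the lowest of the 11. Of the syntaxin genes outside the thresholded list, Syx13 had a ranked peak of 63.6, slightly above the pooled 60.7 of Syx16, but with an IDR score of 59 and replicate values of 30.03 and 15.6. Syx1A, the neuronal syntaxin of synaptic vesicle release, followed with 42.1 and Syx6 with 19.8, while Syx5, Syx7 and Syx8 had no ranked peak at a TSS.

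Vps33B, a Sec1 family partner of SNAREs, had nearly the same value in both replicates, 68.8 and 68.8 (68.8 ± 0.02, n = 2). The gene was nevertheless bound in replicate 1's own list and not in replicate 2's. Its summit lies 173 bp upstream of the TSS (3R, 25473145 to 25473488). Fur1, which encodes a furin protease of the secretory pathway, starts 259 bp from the same summit on the opposite strand.

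The genes with Rab symbols, the largest subfamily, encode Rab GTPases except for the regulators Rab3-GAP, Rab3-GEF and Rab3GAP1. Of these 36 genes 2 were bound (5.56%, 1.54 to 18.1), and the interval includes the background of 10.1%. Rab5, which governs fusion at the early endosome, had 416 in replicate 1 and 429 in replicate 2 (423 ± 8.69, n = 2), and its peak (2L, 2363593 to 2363946) was the 39th strongest. The gene has 6 annotated TSSs, and the summit lies in an intron of the gene, 263 bp upstream of the nearest TSS and without another gene's TSS within 500 bp. Rab39 had 34.5 and 44.9 (39.7 ± 7.37, n = 2). Its summit is 302 bp from its own TSS and 30 bp from that of Pdp, which encodes a pyruvate dehydrogenase phosphatase.

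In the conservative list the other 34 genes with Rab symbols had at most sub-threshold peaks at a TSS. The highest were Rab3GAP1 (65.8, IDR score 551), which was bound in the optimal list, RabX1 (54.1, score 66) and Rab1, the GTPase of traffic from the endoplasmic reticulum to the Golgi (53.9, score 336). A ranked peak lay at a TSS in 24 of all 36 genes with Rab symbols (66.7%), near the 64.7% of all protein-coding genes. The 12 without one include Rab7, the late endosomal Rab, and the recycling genes Rab4 and Rab35. Rab9D, Rab9Db, Rab9E, Rab9Fa and Rab9Fb lie on X between 10589089 and 10952486 and are related copies, and how reads that match several places were treated is not stated in the sources. Of these 5, Rab9Db and Rab9Fb had a ranked peak (17.7 and 16.3), and the values of all 5 are uncertain.

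**Figure D2:**
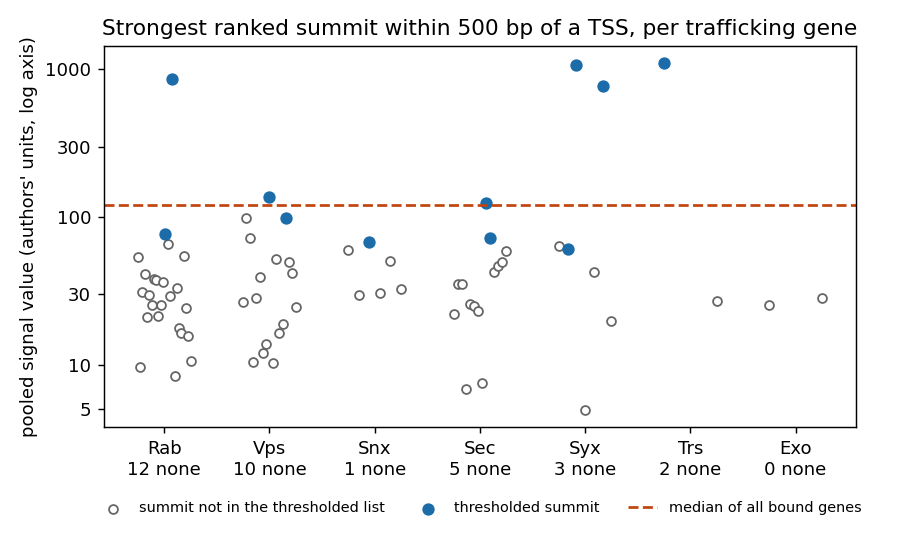
Pooled signal value, on a log axis, of the strongest ranked summit within 500 bp of a TSS for each trafficking gene, by subfamily, with the number of genes that had none under each name. Filled points are thresholded summits, open points are not, and the dashed line is the median of all bound genes (121): Rab5, Syx17, Syx4 and Trs20 stand at 773 or above.

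At the endoplasmic reticulum 1 of 4 genes of the Sec61 translocon was bound (4.56 to 69.9%, an interval that includes the background of 10.1%). Sec61alpha, the pore of the protein translocation channel, had 31.4 and 46.5 (38.9 ± 10.6, n = 2) and an IDR score of 945, and it appeared in neither replicate's own list nor in the optimal list. Its summit is 184 bp from its TSS and 170 bp from that of Daxx, which encodes a histone chaperone. A weaker thresholded peak with a pooled value of 10.2 lies beside it and shares its score and its replicate values. None of 6 genes of the COPII coat and its partners was bound (upper bound 39.0%), with Sec13 and Sec16 highest at ranked values of 35.4 and 35.2. Sec63, a partner of the channel, had 46.8, and Sec71, an exchange factor for Arf GTPases, 49.4.

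Endosomal sorting genes formed the largest group of the Vps genes without a bound member. None of 9 genes of ESCRT and Vps4, which sort ubiquitinated cargo into multivesicular bodies, was bound. The upper 95% Wilson bound, 29.9%, lies above the background of 10.1%. A ranked peak lay at a TSS in 5 of the 9 (55.6%, 26.7 to 81.1), an interval that includes the 64.7% of all genes. Vps36, of ESCRT-II, was highest with 52.1 and an IDR score of 473. The lipid transfer gene Vps13D had a pooled ranked value of 98.6, above the 98.3 of the bound Vps50, yet an IDR score of 678. Its replicate values were 70.2 and 29.0, and it was bound in replicate 1's own list and in the optimal list. Vps15, of the class III PI3 kinase, had 71.8 with 22.9 and 45.5 in the replicates, and it was bound in the optimal list alone.

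Sorting nexin genes had 1 of 7 bound (14.3%, 2.57 to 51.3), and the interval includes the background of 10.1%. Snx21 had 33.8 in replicate 1 and 53.9 in replicate 2 (43.9 ± 14.2, n = 2), the largest ratio between replicates among the 11, 1.59. Replicate 2 was the higher one at 9 of the 11 genes, and Syx4 and Sec6 were the others. Signal values were not scaled between lists and the share over all bound genes was not computed, so this count is not a result about these genes. Snx16, Snx3 and Snx6 had ranked values of 59.3, 50.6 and 32.7, and Snx1 had no ranked peak at a TSS.

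**Figure D3:**
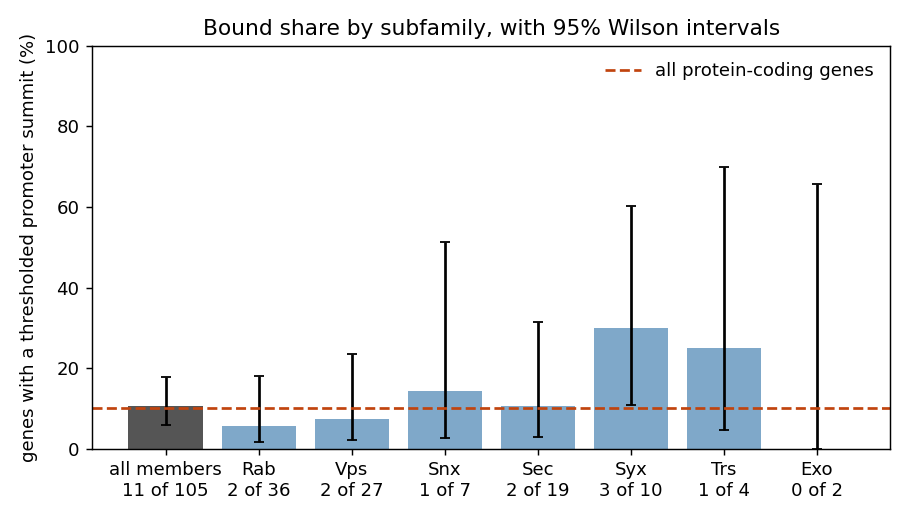
Share of genes with a thresholded promoter summit, in percent, for all 105 trafficking genes and for each subfamily, with 95% Wilson intervals, and the share of all protein-coding genes as a dashed line. The share of all members, 10.5%, lies at the line, and the subfamily intervals are wide, as for Syx with 3 of 10.

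All 11 summits lay upstream of the nearest TSS of their gene, at distances of 38 to 482 bp with a median of 173 bp. The background was 83.5% upstream over all bound genes, with a median distance of 155 bp in either direction. Snx21 (443 bp) and Syx16 (482 bp) were just inside the window. Their summits are nearer to aph-1 (125 bp), a subunit gene of gamma-secretase, and to HERC2 (162 bp), a ubiquitin ligase gene. Just outside it, at 570 and 579 bp downstream of a TSS, were the intronic peaks of Rab14 (72.6 and 81.8 in the replicates, 77.2 ± 6.5, n = 2) and Sec13 (54.5 and 45.0, 49.7 ± 6.72, n = 2).

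**Figure D4:**
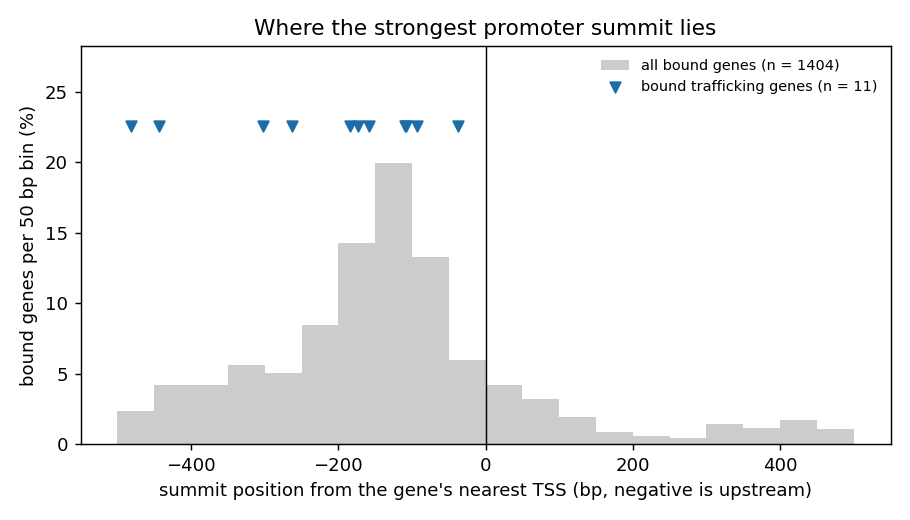
Position of the strongest promoter summit from the gene's nearest TSS, in bp with upstream negative, for all 1404 bound genes (grey bars, percent per bin) and for the 11 bound trafficking genes (triangles). All 11 triangles lie upstream, from 482 to 38 bp.

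Some of these promoters are shared with a neighbour. For 8 of the 11 genes (72.7%, 43.4 to 90.3) another protein-coding gene had a TSS within 500 bp of the summit. The interval includes the background of 50.1% of all bound genes. At all 8 a neighbour lay on the opposite strand, a count for which no share over all bound genes was computed. At Rab39, Sec61alpha, Snx21 and Syx16 the neighbour's TSS was the nearer one, so these 4 peaks can as well be counted for Pdp, Daxx, aph-1 and HERC2. Over all bound genes the nearest TSS belonged to another gene in 25.1%. Rab5, Syx17 and Syx4 had no neighbour within 500 bp, and with Trs20 they are the 4 strong peaks. All 7 weaker ones were shared. In the whole list the contrast was small, with 44.1% of the 93 bound genes of at least 500 and 50.5% of the other 1311 sharing their summit.

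Peaks beyond the promoter window were listed for the trafficking genes only, with no share over all genes to set beside them. There, 7 thresholded summits lay inside 6 trafficking genes, 6 of them in introns. Besides Rab14 and Sec13 they were in Rab11, the recycling endosome Rab (2 overlapping peaks, the stronger with 68.4 and 47.2 in the replicates, 57.8 ± 15.0, n = 2, 1825 bp from the TSS), in Snx27 (60.3 and 63.3, 61.8 ± 2.1, n = 2, 2562 bp), and in Rab32 (54.6 and 43.5, 49.1 ± 7.84, n = 2), whose summit is 2186 bp upstream of its nearest TSS and 290 bp from the TSS of lncRNA:CR44284. The last, in Vps4, fell in the 3' UTR, 436 bp from the TSS of the neighbouring gene CG6847. At Rab11 and Snx27 no TSS of another gene was nearer than their own. Another 4 summits lay outside the gene but within 2000 bp of its ends, at Rab32, Syx6, Trs20 and Vps52, and each was nearer to the TSS of another gene.

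Sequences known from fly promoters were looked for in the summit windows, as exact matches on both strands. TATCGATA, the DNA replication-related element (DRE), GGTCACAC, the site of M1BP, GAGAGAG, the site of GAGA factor, CAGGTAG, the site of Zelda, and TCACGTGA, the E-box known from lysosomal genes in mammals, were in none of the 11 windows. Over all conservative windows they were in 0.668%, 0.605%, 1.94%, 0.414% and 0.0318%, so they were rare at the summits of the list in general. The TATA box letters TATAAA were at Syx4 and Vps50, and in 18.9% of all windows against 10.7% of the flanking windows.

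The 8-mers in largest excess at the other conservative summits over their flanking windows were TATTTTAA, AAAATATT, AAATATAT, AAAAATAT and ATTTAAAA, which overlap one another. Each was in 5.73% to 6.55% of all windows and in 1.58% to 2.97% of the flanking windows. Of the 11 windows only that of Rab5 held 1 of the 5, ATTTAAAA. At least 1 of the 5 was in 21.3% of all windows. The 8-mers were picked for their excess in nearly all of those windows, with the trafficking windows left out. The 2 shares are therefore not a like comparison.

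The promoters themselves were set beside all promoters in the same way. Each ran from 250 bp before to 50 bp after the TSS of the gene's transcript with the longest genomic span. DRE letters were in 24 of 105 trafficking promoters (22.9%) and in 9.32% of all, and M1BP letters in 17 (16.2%) and in 7.7%. The GAGA factor letters went the other way, with 1 of 105 (Rab26, 0.952%) against 5.89%, and Zelda letters were in 0 against 1.63%. TATAAA was in 45.7% of trafficking promoters and 45.6% of all, and TCACGTGA was in 0 and 0.172%. None of these differences was tested. Of the 24 with DRE letters 1 was bound, Sec6 (4.17%), and of the 1302 such promoters in the genome 12.4% were bound. The trafficking share rests on 1 gene, and this difference was not tested either.

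Genes of the same machinery with other symbols were counted from a list of other trafficking components, also chosen with earlier results of these data known. Of 93 listed genes, all found in the annotation, 15 were bound (16.1%, 10.03 to 24.9), and the interval includes the background of 10.1%. The strongest were fws, a subunit gene of the Golgi COG tether (210 ± 32.9, n = 2), Mon1, of the exchange factor for Rab7 (187 ± 3.51), the clathrin adaptor gene AP-1sigma (142 ± 30.6) and the COPI coat gene alphaCOP (130.1 ± 31.2). None reached the level of the 4 strong trafficking promoters above. SIDL (124 ± 3.33), l(3)76BDm (96.7 ± 25.4) and Bet3 (40.7 ± 11.7) are TRAPP genes, so with Trs20 TRAPP had 4 of 9 genes bound (44.4%, 18.9 to 73.3, beside the background of 10.1%). This difference was not tested, and the SIDL summit is nearer to the TSS of CG12241 (130 bp) than to its own (252 bp). Rbsn-5, a Rab5 effector gene (96.6 ± 10.9), scat, the fly Vps54 of GARP (60.7 ± 13.1), the SNARE gene Vti1b (58.5 ± 29.9) and cm, of the AP-3 adaptor (54.2 ± 10.6), followed. With both lists together ESCRT and Vps4 had 0 of 16 bound (upper bound 19.4%), HOPS and CORVET 0 of 7, COPII 0 of 8, and SNAREs with their partners 5 of 31. At these sizes such differences between complexes were not tested, and genes that share a summit are not independent. The summits at alphaCOP, Rbsn-5 and cm were, as at SIDL, nearer to another gene's TSS.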

How the data were processed

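Peak lists of 2 biological replicates and of their pooled reads were used. Per the labels and the deposited file descriptions, chromatin was sonicated to 200 to 800 bp and all lists were made on dm6 from the alignments of the samples and a control. The sources used here name no aligner or peak caller. The deposited signal value (column 7 of each list) was not scaled between lists. The deposited score is proportional to the −log2 of the global IDR, and the authors' ranked lists also give its −log10. A score of 830 corresponds to an IDR of 0.01. Pooled and replicate signal values are on different scales.

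TSSs are those of Ensembl release 115, and bases were read from RefSeq's copy of that assembly. Coordinates are 1-based. Replicate values are those of the replicate's own ranked peak that the conservative ranked list names as the match, by position and summit. Counting and intervals used Python 3.11.15 with scipy 1.17.1 and pandas 2.3.3, and the gene calls and 8-mer counts were checked on planted data. No test was made: genes that share peaks are not replicates, and 2 replicates of 1 group allow none. Genes named were all bound members, up to 3 unbound members per subfamily with the highest ranked peak, peaks 400 to 700 bp from a TSS, and up to 10 bound genes of the other list, with further genes named after their values were seen to complete a complex. Role lists matched 61 of the 105 genes. The members and lists were chosen with earlier results of these data known. Summit sequences with over 30 annotated UTR bases, and those of 2 further genes, are not printed. The alternatives were other TSS windows, lists, replicates, strength, an added set of 84 peaks that pass the IDR limit, and peak edges. A further one used only the TSS of the transcript with the longest genomic span.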

Additional observations from a re-analysis of the deposited data

How the results depend on the processing

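The trafficking share was 5.71% to 12.4% in the 9 settings tried, and that of all genes 5.88% to 12.6%. With a TSS window of 250 bp 7 genes were bound (7.65% of all genes), Rab genes falling to 0 and Snx genes to 0: Rab5, Rab39, Snx21 and Syx16 were lost. With 1000 bp 13 were bound (12.6% of all genes), Rab14 and Sec13 being added, as they were when any base of the peak counted (11.0% of all genes). With the optimal list 12 were bound (11.7% of all genes), Vps genes at 4, Sec genes at 1 and Snx genes at 0. Replicates alone gave 7 to 8 trafficking genes, 7.40% to 7.44% of all genes, 1 to 2 Rab, 1 to 2 Vps, 0 to 1 Snx, 1 Sec gene in each, and 8 to 12 genes of the other list. The stronger 50% of peaks left 6 (5.71%, against 5.88% of all genes), with 1 Rab, 1 Vps, 1 Sec and 0 Snx genes. With only the TSS of the transcript with the longest genomic span, 10 were bound (8.40% of all genes), with 1 Rab gene, Rab5 being lost. Trs20, Syx17, Syx4 and Sec6 were bound in every setting. Adding peaks that pass the IDR limit changed no trafficking call. A ranked peak at a TSS was found for 49.5% of the trafficking genes at 250 bp, 81.9% at 1000 bp and 80.0% with the optimal list. The share over all genes was not computed in these settings, so these values are not a result about the trafficking genes. In the main setting the shares were 68.6% and, over all genes, 64.7%. The causes were not tested. Depth is unknown, so a gene without a peak cannot be called unbound in the cell. Of the 11 bound genes, 5 were bound in both replicates' own lists and 4 in only 1 of them. Sec61alpha and Syx16 were in neither replicate's own list.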
